A study of Schizosaccharomyces pombe with 28 samples.

Results

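Hybridisations 21, 22, 27 and 28 were compared with hybridisations 23 to 26 in fission yeast, Schizosaccharomyces pombe: 8 arrays, 4 a side, of 28 in the series. The labels do not give these sides. They were chosen by the measured ratios themselves, in which the 4 arrays of each side resembled each other, so every value below describes the contrast and no test of it is given. All 28 arrays carry the same description: a wild-type strain, LJY1014, of genotype h- leu1-32, grown in rich YES medium and collected in early-log phase. Each array hybridised a Cy3-labelled and a Cy5-labelled cDNA, both from independent cultures of that strain, which is called a self-self hybridisation. The strain carries the leu1-32 allele in both channels of every array, so it is no difference between the sides.

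A value here is the log2 ratio of the channels of an array after the median of that array was subtracted. A value of 0 means that a transcript had the same ratio as the median probe. Which dye was the numerator, and whether dyes were swapped, is not given in the sources used here. "Higher" therefore means a larger deposited ratio and names no culture. A ratio between cultures does not tell apart a change in every cell from a change in some cells. All 28 deposited arrays had a value for every probe, and no spot intensities were used, so the number of arrays limits the precision.

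Each gene was measured by 2 probes, which were averaged. A gene was counted as higher on the first side (21, 22, 27 and 28) where its value in each of these 4 arrays exceeded its value in each of 23 to 26 and both probes differed in that direction. Genes were counted as lower by the mirrored rule. Of 4919 genes compared, 452 were counted higher, which is 9.19%, and 435 were counted lower, which is 8.84%. With a difference between side means of at least 0.5, 55 genes (1.12%) were higher and 21 genes (0.427%) were lower. These shares were fixed by the choice of sides and serve only as the background against which the gene groups are read. Without the subtraction of array medians the counts were 151 higher and 478 lower, since array 27 alone had a deposited median of -0.29.

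Ribosomal proteins, translation elongation factors and glycolytic enzymes are among the most abundant products of a growing yeast cell. Transcription of ribosomal protein genes follows growth rate and nutrient supply and falls in many stresses. Glycolysis and fermentation supply the energy of fission yeast in glucose medium, and heat shock proteins and the proteasome handle misfolded and short-lived proteins.

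The genes that stood higher on the first side were led by cytosolic ribosomal protein genes. Of the 55 genes higher by at least 0.5, 33 encoded such proteins, and 0 of the 21 genes lower by at least 0.5 did. Such genes were 120 of the 4919 compared, so 0 of 21 says little. Over all sizes of difference, 74 of the 120 cytosolic ribosomal protein genes compared were counted higher, or 61.7%, beside 9.19% of all genes. Another 7, or 5.83%, were counted lower, beside 8.84% of all genes. The median difference was 0.35 for the 77 genes of the large subunit and 0.38 for the 43 genes of the small subunit, beside -0.01 over all 4919 genes.

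The mean over the large-subunit genes was 0.38, 0.19, 0.34 and 0.22 in arrays 21, 22, 27 and 28. It was 0.04, 0.06, -0.07 and -0.13 in arrays 23, 24, 25 and 26. The sides did not overlap, and array 22 was the lowest of the first side. The small-subunit genes ran in parallel, with 0.40, 0.21, 0.38 and 0.27 on the first side and 0.01, 0.03, -0.10 and -0.10 on the second. In arrays 1 to 20, which the choice of sides did not use, the large-subunit mean ranged from 0.00 to 0.44 with a median of 0.17. The first side thus lay within the range of the other arrays, and arrays 25 and 26 lay below it.

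**Figure D1:**
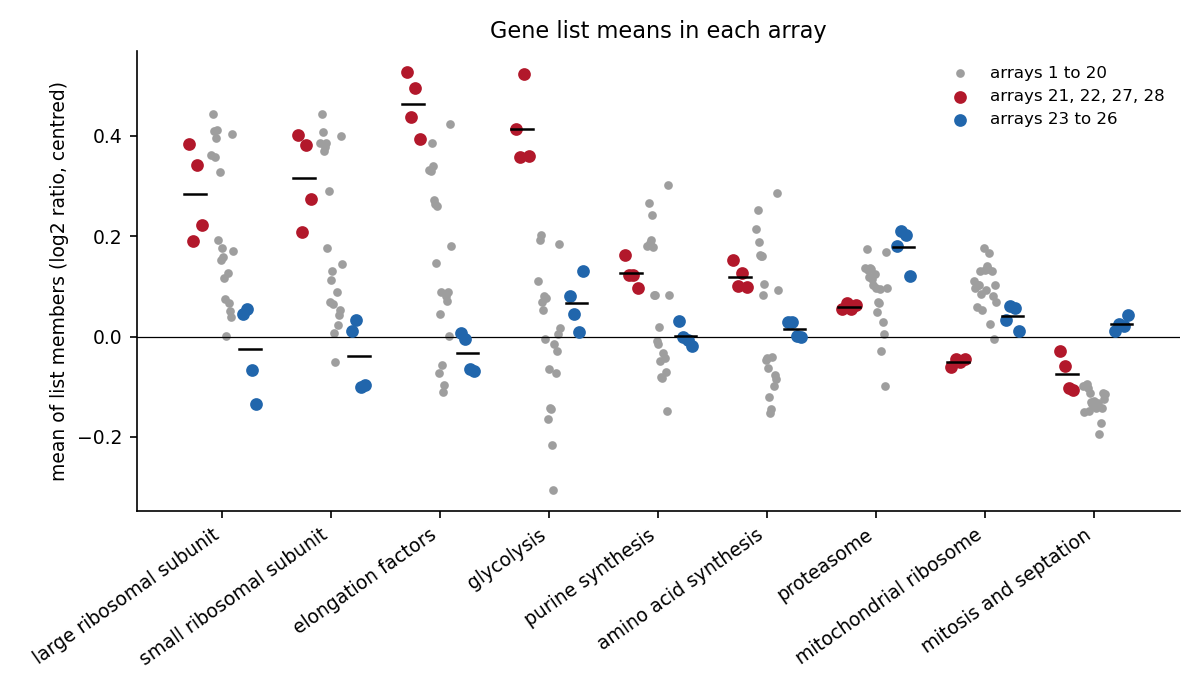
The plot of gene list means gives, for 9 gene lists, the mean centred log2 ratio of the members in each array. Red points are arrays 21, 22, 27 and 28, blue points arrays 23 to 26, grey points arrays 1 to 20, and black bars the mean of each set of 4. The glycolytic mean was 0.36 to 0.52 in the red arrays, above the highest grey value of 0.20, while the ribosomal means of the red arrays lay inside the grey range.

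The largest difference among counted genes higher on the first side belonged to rpl803 (SPBC839.04), one of the genes for large-subunit protein L8. Its values were 0.97, 0.57, 0.87 and 0.80 in arrays 21, 22, 27 and 28, and -0.01, 0.03, -0.26 and -0.24 in arrays 23 to 26. The means were 0.80 ± 0.17 and -0.12 ± 0.15 (SD, n = 4 a side), a difference of 0.92, and its probes gave 0.92 and 0.93. Every array of the first side exceeded the highest value of rpl803 in arrays 1 to 20, which was 0.44.

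Among ribosomal protein genes, the small-subunit gene rps1401 (SPAC3H5.05C) followed, with 0.59, 0.35, 0.65 and 0.49 against -0.12, -0.20, -0.28 and -0.30. Its difference was 0.74, and the lowest array of the first side stood 0.35 above the zero line while all of the second side stood below it. The acidic stalk protein gene rpp201 had 0.68, 0.25, 0.72 and 0.43 against 0.03, -0.10, -0.30 and -0.28, and rps2, for a small-subunit protein, had 0.78, 0.26, 0.70 and 0.55 against 0.15, 0.06, -0.24 and -0.27. In both, array 22 was the lowest of the first side. Differences of 0.61 to 0.69 were also seen for rpl2301, rpl4301, rps3, rpl4302 and rpp102.

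Most fission yeast ribosomal proteins are encoded by several near-identical gene copies. Of 43 families with at least 2 copies compared, 21 had all copies counted higher and 1, the rpl41 pair, had all copies counted lower. In 11 families only some copies were counted higher, in 2 some were counted lower, and in 8 no copy was counted. Copies differed from each other by a median of 0.05, for example 0.55 and 0.54 for rps1901 and rps1902 or 0.65 and 0.61 for rpl4301 and rpl4302. Copies of like sequence can bind the same probe, and how much of each value is shared signal was not tested.

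A few families had copies that stood apart. The difference was 0.50 for rpl1601 and 0.42 for rpl1602 but -0.12 for rpl1603, the widest gap of any family, although none of these copies was counted. In rpp2, rpp201 and rpp203 differed by 0.68 and 0.60 and were counted higher, while rpp202 differed by 0.08 and was not counted. The gene rpl3801 had -0.02, -0.03, -0.13 and -0.16 on the first side and 0.12, 0.28, 0.36 and 0.27 on the second, a difference of -0.34. Its copy rpl3802 differed by 0.17 in the other direction, with overlapping arrays.

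The 7 ribosomal protein genes counted lower were rpl3801, rpl39, rpl4101, rpl4102, rpl29, rps3001 and rps2502, named here after their values were seen. The gene rpl39 had -0.04, -0.12, -0.13 and -0.09 on the first side against 0.14, 0.32, 0.31 and 0.08, a difference of -0.30. For rps3001 the difference was -0.30 as well, with 0.03, 0.05, -0.03 and -0.04 against 0.15, 0.37, 0.36 and 0.33. These encode small proteins: their genes had a median length of 398 bases and ran from 285 to 664 bases, by the RefSeq annotation. The 74 counted higher had a median of 696 bases and ran from 422 to 1473 bases, and the 39 ribosomal protein genes not counted had a median of 671 bases. With a linear trend on log10 gene length removed from each array, the median difference was 0.32 for the large and 0.36 for the small subunit.

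**Figure D2:**
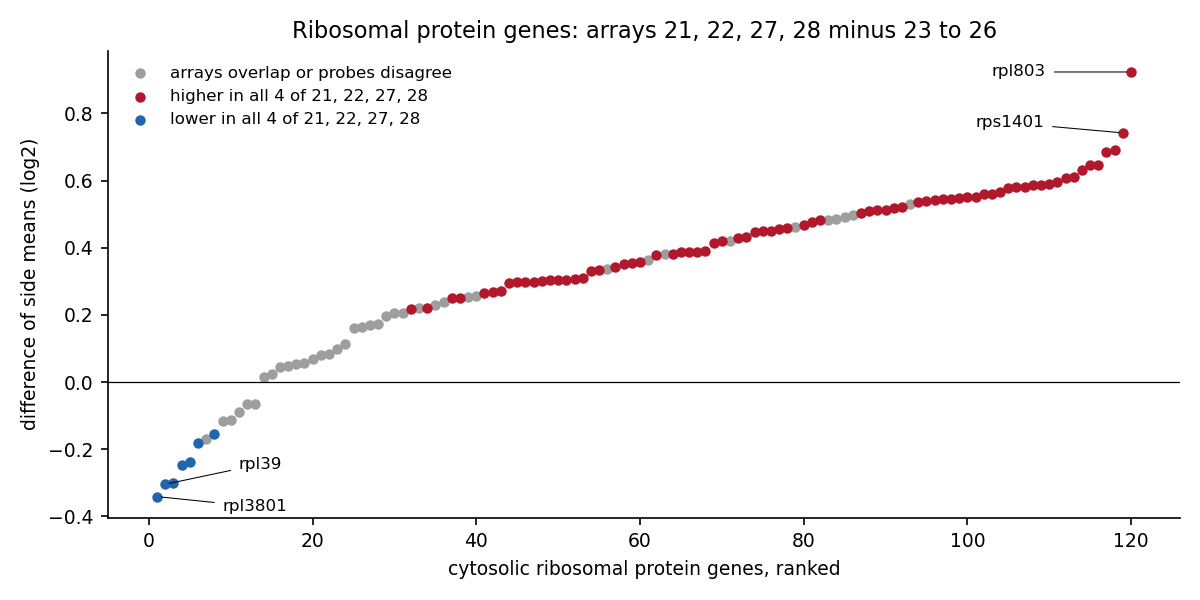
The plot of ribosomal protein genes ranks the 120 genes by the difference of side means (y axis, log2, first side minus second). Red points are the 74 genes counted higher, blue points the 7 counted lower and grey points the 39 counted in neither direction; rpl803 is at the top with 0.92 and rpl3801 at the bottom with -0.34.

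All 3 elongation factor genes that could be compared were counted higher, beside 9.19% of all genes, with a median difference of 0.49. The gene eft201, for the translocase elongation factor 2, had 0.58, 0.52, 0.49 and 0.48 against 0.03, 0.05, 0.03 and 0.02, with hardly any spread inside either side. Whether its spots were saturated was not tested. The genes tef3 and tef5, for other elongation factors, differed by 0.49 and 0.51. The 3 genes of elongation factor 1 alpha (tef101, tef102 and tef103) were left out because probes of theirs exceeded 3; with those probes kept, the median of the list was 0.15.

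Of 30 initiation factor genes, 6 were counted higher (20.0%) and 1 lower (3.33%), with a median difference of 0.02. Of all genes, 9.19% were counted higher and 8.84% lower. The 4 largest were tif512 (0.42), tif307 (0.40), tif51 (0.31) and moe1 (0.25). Genes for ribosome assembly did not follow the ribosomal proteins as a list: 4 of 52 were higher and 4 lower, with a median of -0.02. Each count is 7.69% of the list, below the share of all genes in either direction. The 4 lower were dim1, imp3, imp4 and nop12. The 4 higher were the nucleolar genes gar1 (0.52), gar2 (0.47) and fib1 (0.47), of which gar1 and fib1 encode core proteins of small nucleolar ribonucleoproteins, and the RNA helicase gene dbp2 (0.39).

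Of 57 mitochondrial ribosomal protein genes, 1 was higher and 6 were lower, or 10.5%, near the 8.84% of all genes. Their median difference was -0.08. The list mean was -0.05 ± 0.01 on the first side and 0.04 ± 0.02 on the second (SD, n = 4). The largest counted difference was that of mrpl40 at -0.44, with 0.03, 0.01, 0.23 and 0.18 against 0.61, 0.66, 0.56 and 0.38. The genes mrp11, rsm27 and rsm24 differed by -0.34, -0.26 and -0.21.

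Glycolytic enzymes stood higher on the first side. All 12 genes of the list had a positive difference, 6 of them were counted higher beside 9.19% of all genes, none was counted lower, and the median difference was 0.40. The list mean was 0.41, 0.36, 0.52 and 0.36 in arrays 21, 22, 27 and 28 and 0.08, 0.05, 0.01 and 0.13 in arrays 23 to 26. In arrays 1 to 20 it ranged from -0.31 to 0.20, so that all 4 arrays of the first side exceeded all other arrays while the second side lay within them.

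Along the pathway, the hexokinase genes differed by 0.09 (hxk1) and 0.20 (hxk2), with overlapping arrays in both. The isomerase gene pgi1 differed by 0.21, also with overlap. Phosphofructokinase, the committing step, is encoded by pfk1 (SPBC16H5.02), whose values were 0.47, 0.46, 0.68 and 0.41 against 0.13, -0.04, -0.02 and 0.06. Its difference was 0.47, and every array of the first side exceeded the 0.12 that was its highest value in arrays 1 to 20.

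The triose phosphate isomerase gene tpi1 differed by 0.41, with 0.43, 0.43, 0.49 and 0.43 against 0.10, 0.19, -0.06 and -0.07. Both glyceraldehyde-3-phosphate dehydrogenase genes were counted, with differences of 0.51 for gpd3 and 0.44 for tdh1. The enolase gene eno101 had 0.67, 0.55, 0.59 and 0.45 against 0.04, -0.05, -0.01 and 0.28, a difference of 0.50, and the pyruvate kinase gene pyk1 differed by 0.40. In gpd3, tdh1 and eno101, array 26 was the highest of the second side, at 0.28 to 0.37. Phosphoglycerate mutase (gpm1) had the largest difference of the list, 0.52, but was not counted, because its 0.18 in array 22 fell below its 0.24 in array 23. Aldolase (fba1) and phosphoglycerate kinase (pgk1) differed by 0.28 and 0.15 with overlapping arrays.

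The fermentation steps after pyruvate showed the same order. The main alcohol dehydrogenase gene adh1 had 0.68, 0.52, 0.77 and 0.56 against 0.19, 0.12, 0.03 and 0.31, and pdc101 and pdc102, pyruvate decarboxylase genes, differed by 0.50 and 0.55. These were the 3 of 8 genes of this list counted higher (37.5%, beside 9.19% of all genes), and none was counted lower. Of 14 tricarboxylic acid cycle genes, 4 were counted higher (28.6%) and 1 lower (7.14%), with a median difference of 0.12. The malate dehydrogenase gene mdh1 (0.30), the citrate synthase gene cit1 (0.24), the succinate dehydrogenase gene sdh1 (0.23) and the aconitase gene aco1 (0.21) were the higher ones. Of 14 genes of hexose transport and glucose repression, 3 were counted higher (21.4%), the hexose transporter genes ght8 (0.36), ght7 (0.34) and ght1 (0.19).

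**Figure D3:**
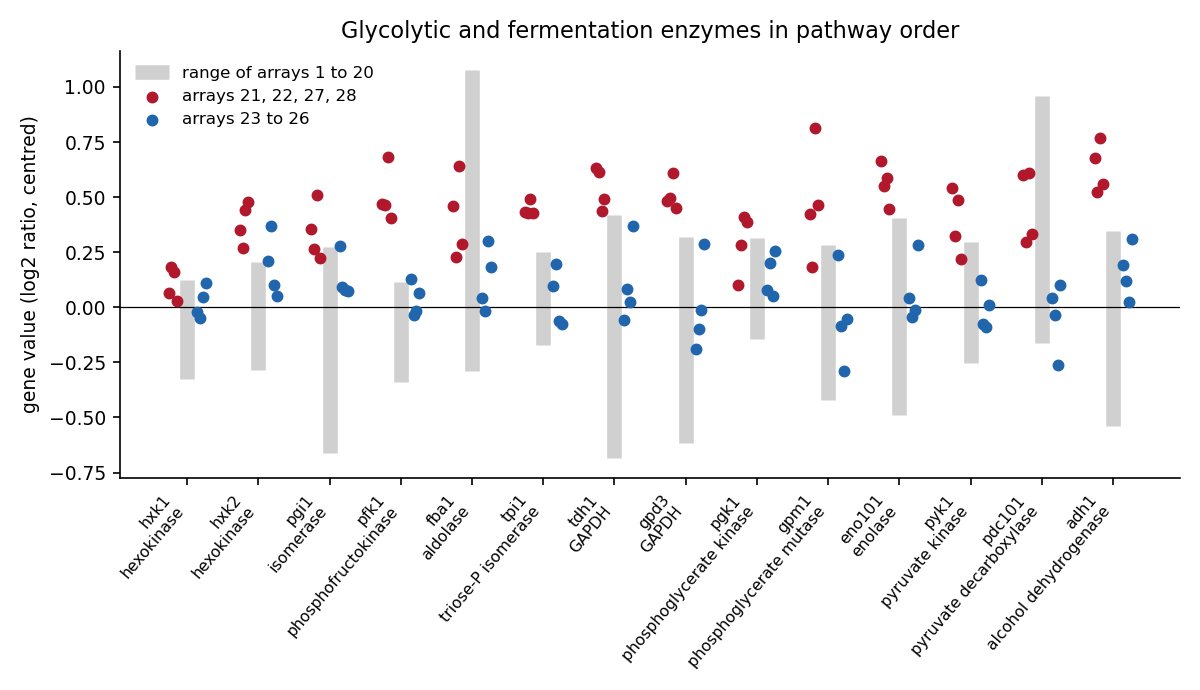
The plot of glycolytic and fermentation enzymes shows 14 genes in pathway order, with the centred log2 ratio in each of arrays 21, 22, 27 and 28 (red) and 23 to 26 (blue) and the range of arrays 1 to 20 as a grey bar. All 4 red points of hxk2, pfk1, tpi1, tdh1, gpd3, eno101 and adh1 lie above the grey bar. The sides overlap for hxk1, hxk2, pgi1, fba1, pgk1 and gpm1.

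Biosynthetic genes had many members counted higher, beside 9.19% of all genes counted higher and 8.84% counted lower. Among 54 genes of amino acid synthesis, 16 (29.6%) were higher and 1 was lower, with a median difference of 0.05, which turned to -0.018 without centring. The branched-chain gene ilv5, for acetohydroxyacid reductoisomerase, had 0.65, 0.26, 0.68 and 0.39 against 0.03, -0.09, -0.25 and -0.17, a difference of 0.62. The leucine gene leu1, for isopropylmalate dehydrogenase and the gene mutated in this strain, had 0.50, 0.12, 0.43 and 0.33 against 0.04, -0.12, -0.29 and -0.38, a difference of 0.53. In both, array 22 was the lowest of the first side. The glutamate synthase gene glt1 differed by 0.40 and arg12 by 0.33.

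In purine synthesis 6 of 12 genes were higher and 1 was lower, with a median of 0.16. The largest difference was that of gua1, for IMP dehydrogenase, at 0.49, with 0.42, 0.33, 0.43 and 0.46 against -0.01, 0.09, -0.28 and -0.11. The genes ade10, ade1 and ade6 differed by 0.33, 0.31 and 0.20. In sulphur assimilation and methionine synthesis 6 of 14 genes were higher (42.9%) and none was lower, with a median of 0.14. They included the cysteine synthesis genes cys11 (0.27) and cys2 (0.27), the S-adenosylmethionine synthetase gene sam1 (0.25) and the sulphite reductase gene sir1 (0.24).

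Outside these lists, SPAC27F1.10 had the second largest difference among genes counted higher. Its values were 0.39, 0.11, 0.50 and 0.39 against -0.75, -0.27, -0.63 and -0.63, a difference of 0.92. Its range in arrays 1 to 20 was -1.40 to 0.13, which held the second side and array 22 but not arrays 21, 27 and 28. The gene mfs3 had 0.40, 0.36, 0.12 and 0.17 against -0.79, -0.48, -0.55 and -0.30. Its lowest value in arrays 1 to 20 was 0.24, so that the second side and also arrays 27 and 28 lay below every one of those arrays. An identifier with no annotated gene, pJ5566_100079, was among the 15 largest as well, with a difference of 0.66. The cell surface protein gene psu1, with 0.39, 0.47, 0.60 and 0.54 against -0.05, -0.08, -0.04 and -0.07, exceeded its highest value in arrays 1 to 20 of 0.21 in all 4 arrays of the first side.

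Among 34 proteasome genes, none was counted higher and 7 were counted lower (20.6%, beside 8.84% of all genes), with a median difference of -0.11. The list mean was 0.05, 0.07, 0.05 and 0.06 on the first side and 0.18, 0.21, 0.20 and 0.12 on the second, with no overlap, and ranged from -0.10 to 0.17 in arrays 1 to 20. The core particle gene pup2 had 0.02, 0.09, 0.01 and 0.15 against 0.40, 0.50, 0.49 and 0.41, a difference of -0.38. The core particle gene pre1 and the regulatory particle genes rpn10 and rpn12 differed by -0.44, -0.40 and -0.29.

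Heat shock and stress genes were counted in both directions. Of 16 cytosolic chaperone genes 2 were higher (12.5%) and 3 lower (18.8%), beside 9.19% and 8.84% of all genes. Their median was -0.13, the lowest of the 44 lists, and 5 of the 16 differences were positive. In arrays 25 to 28 alone the median turned to 0.0341. The list mean was 0.14 to 0.34 on the first side and 0.25 to 0.45 on the second. Both sides exceeded the highest of arrays 1 to 20, at -0.09. The Hsp70 genes sks2 (0.31) and ssa2 (0.30) were higher. The nucleotide exchange factor gene fes1 had 0.11, 0.09, -0.12 and 0.07 against 0.55, 0.77, 0.47 and 0.24, a difference of -0.47. The p23 co-chaperone gene wos2 and the small heat shock protein gene hsp16 differed by -0.33 and -0.28. The disaggregase gene hsp104, with a difference of -0.26, and sti1, a partner of Hsp90, with -0.39, had overlapping arrays.

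The core stress list of 23 genes had 3 higher (13.0%) and 2 lower (8.70%), with a median of -0.01. These shares were near the 9.19% and 8.84% of all genes. The small heat shock protein gene hsp9 (SPAP8A3.04C) had 0.15, 0.08, 0.16 and 0.15 against 0.62, 0.85, 0.68 and 0.54. Its difference was -0.54, and its highest value in arrays 1 to 20 was 0.06, so both sides exceeded every other array. The glutathione peroxidase gene gpx1 differed by -0.38. The glycerol-3-phosphate dehydrogenase gene gpd1, which serves glycerol synthesis, went the other way, with 0.78, 0.55, 0.68 and 0.52 against 0.39, 0.30, 0.32 and 0.29, a difference of 0.31, and obr1 differed by 0.32.

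Several other groups had members counted lower and hardly any counted higher, beside 8.84% and 9.19% of all genes. These lists are small, so a few genes make up each share. Of 22 genes for endoplasmic reticulum chaperones and protein translocation, none was higher and 5 (22.7%) were lower, among them ost4 (-0.33), srp72 (-0.27), the disulphide isomerase gene pdi1 (-0.20) and the translocon gene sec63 (-0.18). Of 22 genes for mitosis, septation and cell separation, none was higher and 4 (18.2%) were lower. They were the cell separation genes adg2 (-0.34), adg1 (-0.31) and adg3 (-0.29) and the forkhead factor gene sep1 (-0.45, from probes at -0.84 and -0.07). Of 22 genes of DNA replication and the G1/S factor MBF, none was higher and 4 (18.2%) were lower. These were the replication checkpoint gene mrc1 (-0.41), the ribonucleotide reductase inhibitor gene spd1 (-0.23), the MBF corepressor gene nrm1 (-0.22) and the cohesin gene rad21 (-0.08).

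In the actin cytoskeleton, 5 of 24 genes were lower (20.8%) and 1 was higher (4.17%), beside 8.84% and 9.19% of all genes. The tropomyosin gene cdc8 had -0.27, -0.04, -0.10 and 0.03 against 0.37, 0.23, 0.47 and 0.35, a difference of -0.45, and the cofilin gene adf1 and the capping protein gene acp1 differed by -0.33 and -0.28. The profilin gene cdc3 was the one counted higher, by 0.25. Iron uptake genes did not set the sides apart. Their list mean was 0.22 ± 0.07 and 0.25 ± 0.01 (SD, n = 4), far above the highest of arrays 1 to 20 at -0.22. Of 14 genes, 1 was higher (shu1, 0.08) and 1 lower (frp2, -0.45, from probes at -0.03 and -0.87), or 7.14% each. The other 23 gene lists examined had medians from -0.09 to 0.13. Their members, some in more than 1 list, were counted higher 54 times and lower 32 times of 421. Among them, fatty acid synthesis had the largest share counted higher, 4 of 7 genes (57.1%). Oxidative stress had the largest share counted lower, 5 of 24 (20.8%). The lists described above were thus not the only ones above the shares of all genes.

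The largest negative differences belonged to single genes of unlike function. The gene srp21 (SPAC17H9.07), for a subunit of the signal recognition particle, had -0.74, -1.13, -0.86 and -1.41 in arrays 21, 22, 27 and 28 and 0.29, 0.12, 0.21 and 0.12 in arrays 23 to 26. Its means were -1.03 ± 0.30 and 0.18 ± 0.08 (SD, n = 4), a difference of -1.22. The lowest value of srp21 in arrays 1 to 20 was -0.02, so the first side lay far below every other array.

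The gene bud22, whose budding yeast counterpart acts in small-subunit assembly, had -0.77, -0.75, -0.88 and -1.16 against 0.29, 0.25, 0.37 and 0.29, a difference of -1.19. It was not in the ribosome assembly list, whose lowest difference was -0.31. Likewise, srp21 was not in the endoplasmic reticulum list, whose lowest was -0.33. The counts of those lists leave these genes out. The mitochondrial gene mdm35 had -0.53, -0.93, -0.70 and -1.08 against 0.16, 0.18, 0.16 and 0.13, and thp1, for a uracil DNA glycosylase, had -0.55, -0.76, -1.04 and -0.99 against 0.16, 0.12, 0.13 and 0.10. For srp21, bud22, mdm35 and thp1 both probes had a difference of -0.83 or lower. In mdm35 and thp1 the second side varied by only 0.02 to 0.03 (SD, n = 4), and the first side by 0.24 and 0.22. A retrotransposon gene, Tf2-11, with a difference of -0.62, also had both probes alike, at -0.65 and -0.59. Whether its probes also bind other retrotransposon copies was not tested.

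For most of the other large negative differences, 1 probe carried the difference. Of the 21 genes lower by at least 0.5, 13 had probes whose differences lay more than 0.5 apart, or 61.9%. This compares with 4 of the 55 genes higher by at least 0.5 and 147 of all 4919 genes (2.99%). The gene pet127, whose budding yeast counterpart acts on mitochondrial RNA, had -1.48, -1.86, -1.75 and -1.87 against 0.16, 0.23, 0.12 and 0.06 at its second probe. Its first probe had -0.24, 0.05, 0.03 and 0.13 against 0.10, 0.04, 0.18 and 0.04, with overlap.

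The same held for pop7, for a subunit of RNase P and MRP, with probe differences of -0.25 and -1.84, and for mlo3, for an RNA-binding protein of mRNA export, with -1.63 and -0.18. It also held for the cyclin gene pch1 (-0.25 and -1.62), the ER-phagy receptor gene epr1 (-1.56 and -0.25), vps8, for a vesicle tethering factor (-0.15 and -1.50), and the cyclin gene pas1 (-0.00 and -1.53). The others named among the 15 largest were SPAC6G10.10C (-0.03 and -1.42), mug103 (-0.27 and -1.27) and rhn1, for a transcription termination factor (-0.20 and -1.09). Their gene-level differences therefore stand for a single probe.

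On the higher side, 4 genes had such uneven probes: SPAC23A1.14C (1.06 and 0.21), sws2 (0.19 and 1.02), thi9, for a thiamine transporter (0.15 and 1.04), and the checkpoint kinase gene tel1 (1.03 and 0.10). Over single probes, 34 of 9845 differed by less than -1, in 32 genes of which 2 had both probes there, and 8 differed by more than 1.

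**Figure D4:**
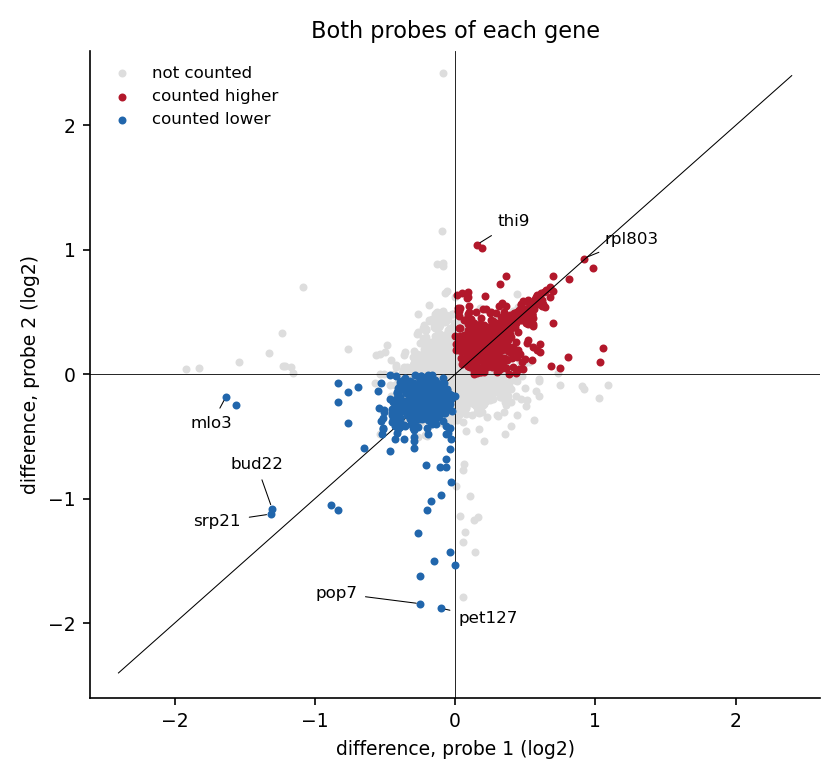
The plot of probe pairs sets the difference at probe 1 (x axis, log2) against that at probe 2 (y axis, log2) for each gene, with the line of equality. The gene rpl803 lies on the line at 0.92 and 0.93, thi9, counted higher (red), lies off it at 0.15 and 1.04, and pop7 and pet127 lie near the vertical axis with about -0.25 and -0.10 at probe 1 and -1.84 and -1.88 at probe 2.

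Some of these single probes ran alike across the whole series. The low probes of pop7, pet127 and mlo3 were averaged, and 6 probes of 6 genes stayed within 0.35 of that average in each of the 28 arrays. They were those of pop7, pet127, mlo3 and vps8, and 1 probe each of SPBC800.12C and SPBPB10D8.03. The next nearest probe, of SPCC74.04, departed by 0.43, followed by probes of epr1 (0.47), mrpl10 (0.54) and dnf1 (0.54). Side means of these next probes ran from -1.36 to -1.15 on the first side and from 0.11 to 0.20 on the second. The 6 were thus not sharply set apart, and pop7, pet127 and mlo3 also made up the average. The limit was set after these values were seen. The 6 probes lay between -1.87 and -1.10 in arrays 21, 22, 27 and 28, between 0.06 and 0.52 in arrays 23 to 26, and between -0.96 and 0.04 in arrays 1 to 20.

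The other probe of each of these 6 genes did not share the pattern. The difference of the other probe was -0.10 for pet127, -0.25 for pop7, -0.18 for mlo3, -0.15 for vps8, and 0.05 for both SPBC800.12C and SPBPB10D8.03. The last 2 genes were not counted, since their probes disagreed in direction. What these probes share was not tested, since probe sequences were not analysed here.

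**Figure D5:**
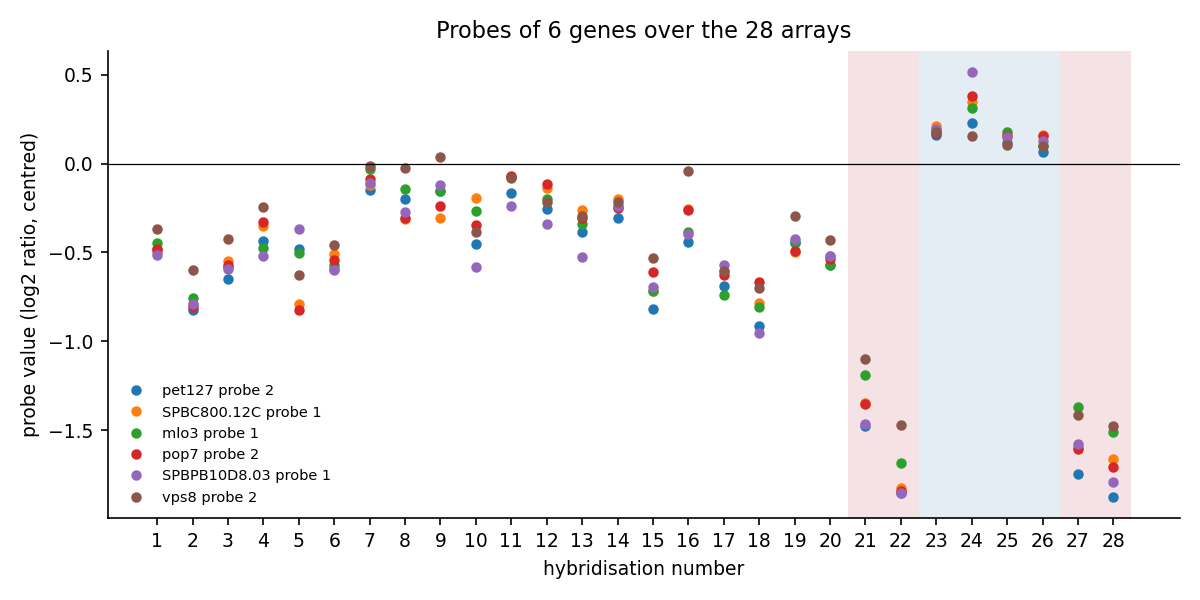
The plot of like probes gives the centred log2 ratio (y axis) of 6 single probes of 6 genes in each of the 28 hybridisations (x axis, by number). Red bands mark arrays 21, 22, 27 and 28, where all points lie between -1.87 and -1.10, and blue bands mark arrays 23 to 26, where all lie between 0.06 and 0.52.

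The 10 identifiers left out for a probe above 3 were mainly genes of very abundant transcripts: tef101, tef102, tef103, pma1 (the plasma membrane proton pump), rpl801, rpl802, rpl1201, rps901, SPCC576.17C and the unannotated c977_101384. The limit was not a close one. The smallest maximum among the 13 probes left out was 4.84, and the largest among the probes kept was 1.53, at coa4. Array 25 held 12 values above 3, array 26 held 4, array 28 held 3 and array 27 held 2, while arrays 21 to 24 and arrays 1 to 20 held 0.

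Both probes of pma1 show the pattern. Probe 1 had 0.40, 0.40, 0.62 and 0.31 on the first side and -0.05, -0.06, 4.86 and 0.09 on the second, and probe 2 had 4.85 in array 25. In array 23, 9 of the 13 probes lay between -0.07 and -0.04, and in array 24, 10 of 13 did, beside 6.15% and 6.67% of all probes in those arrays. The 12 high values of array 25 were nearly identical as well, from 4.84 to 4.89. Whether these spots were saturated was not tested, since no intensities were used. The same holds for the abundant ribosomal protein, elongation factor and glycolytic genes compared above. Where the other probe of a left-out gene stayed within the limit, 5 of 7 were higher on the first side by at least 0.3. At rpl802 that probe had 0.97, 0.55, 0.97 and 0.65 against -0.05, -0.03, -0.19 and -0.08. Those of rpl801 and SPCC576.17C differed by only -0.02 and -0.04. The share of all probes at 0.3 is not given, so the count only describes these genes.

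The sides were also described by how the arrays resembled each other and the rest of the series. Across genes, Pearson's r between arrays was 0.51 to 0.70 for the 6 pairs within the first side and 0.55 to 0.73 for the 6 pairs within the second. It was -0.02 to 0.46 for the 16 pairs between the sides. Such likeness chose the sides. Genes are not independent replicates, and the arrays share probes and platform. Arrays 22 and 28 were nearer to the second side, with 0.30 to 0.46, than array 21, with -0.02 to 0.20.

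The mean of the second side correlated across genes at -0.22 to 0.33 with arrays 1 to 20, with 0.18 to 0.33 for arrays 9 to 14, 16 and 17 and the lowest values for arrays 3 (-0.22) and 19 (-0.20). The mean of the first side correlated at -0.08 to 0.03 with each of arrays 1 to 20.

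Counted genes were also set against the range of arrays 1 to 20. They had been chosen for separated sides, so the shares outside that range are description only. Of the 452 genes counted higher, the mean of the first side lay above the range of arrays 1 to 20 for 106 (23.5%), and the mean of the second side lay below it for 99 (21.9%). Of the 435 counted lower, the first side lay below the range for 129 (29.7%), and the second side lay above it for 47 (10.8%). Both means lay within the range for 252 and 265 genes. Among the 4032 genes not counted, the first side was above the range for 6.87% and the second side below it for 7.09%. The first side was below the range for 8.71% of them and the second side above it for 6.03%.

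Genes counted higher had a median length of 1590.5 bases and genes counted lower 1637 bases, beside 1850 bases for the rest, by the RefSeq annotation. Without the cytosolic ribosomal protein genes the medians were 1783, 1675.5 and 1857 bases. Of the genes counted higher 42.4% lay on chromosome I, of those counted lower 50.3%, and of the rest 45.5%.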

How the data were processed

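Per the labels, the authors scanned slides on a GenePix 4000A scanner, read them with GenePix Pro 4.0, corrected the background, removed flagged and dim features, and deposited medians of log2 ratios. The normalization step is not given in the sources used here. The table holds 9858 probes, 2 for each of 4929 identifiers. By the platform's annotation, 4816 identifiers stood for a single gene, 22 for several and 91 for none, and 4803 matched the RefSeq table (assembly ASM294v3), used for names and lengths.

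With Python 3 libraries (pandas, numpy), each array was centred on its median, identifiers with a probe above 3 in any of the 8 arrays were left out, and the 2 probes were averaged. The code of the counting rule was run on simulated data with known shifts. Those arrays were drawn independently, so that check does not bear on the counts given here. No tests were run, because the arrays were divided on these values. The sides and the 44 gene lists were chosen with earlier results of these data known, and lists were trimmed by gene role, and 21 of them picked for description, after values were seen. Named genes were the 15 largest counted differences in each direction, the 4 largest counted in each list described, leu1 and paralogues of named ribosomal protein genes, with a few genes added after their values were seen, such as the glycolytic genes not counted. Alternatives covered centring, scaling, each probe, the limit of 3, medians, gene length, separation of both probes and leaving out each array. Promoter motifs, which had been planned, were not analysed here.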

Additional observations from a re-analysis of the deposited data

Results flagged for a closer look

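Among 157 results and 314 sets of 4 values, 22 sets had 1 array standing apart from the other 3 by Dixon's gap ratio. Chance flags about 1 in 20 sets. Array 28 stood apart on the first side for rpl2301 (0.39, the others from 0.63), ade6 (-0.0389) and gpx1 (0.10). Array 27 did so for fes1 (-0.12), ost4 (-0.60), rad21 (-0.15) and tpi1 (0.49), array 22 for ght1 (-0.10), sks2 (0.21) and hsp9 (0.0759), and array 21 for shu1 (0.082) and rpp202 (0.26).

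On the second side, array 26 stood apart for SPAC23A1.14C, at -1.15 against -0.34 to -0.21 in the other 3 arrays, and for mug103 (0.0661) and sep1 (-0.0391). The low value of SPAC23A1.14C in array 26 came from its first probe, at -2.21. Array 24 stood apart for rpl2301 (-0.19), sdh1 (0.19) and the mean of the iron uptake genes (0.23), and array 23 for rsm27 (0.0591), spd1 (-0.0207), pgi1 (0.28) and rps3001 (0.15). No array took more than 4 of the 22.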

How the results depend on the processing

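No paired analysis was possible because all arrays carry the same label. Leaving out 1 array in turn gave 477 to 610 genes higher and 471 to 612 lower, and 39 to 76 and 21 to 23 with a difference of at least 0.5. It gave median differences of 0.31 to 0.40 for the large and 0.34 to 0.43 for the small ribosomal subunit, 0.47 to 0.52 for elongation factors, 0.37 to 0.43 for glycolysis and -0.12 to -0.08 for the proteasome.

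Without centring, 151 genes were higher, of which 150 were among the 452, and 24 were higher and 43 lower by at least 0.5. The medians were then 0.42 for elongation factors, 0.34 for glycolysis and -0.17 for the proteasome, and that of amino acid synthesis turned to -0.018. Since array 27 has a median of -0.29 against about 0 in the others, its values drop in that setting. With both probes separated, 176 genes were higher and 103 lower, and 8 were lower by at least 0.5. Probe 1 alone gave 37 and probe 2 alone 39 genes lower by at least 0.5, and probe 2 alone gave -0.0707 for the proteasome. With probes above 3 kept, the elongation factor median was 0.15, since 3 more genes entered.

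Settings chosen after seeing the data were these. With probe differences within 0.5 of each other, 8 genes were lower by at least 0.5. Arrays 21 to 24 alone gave 943 genes higher and 1008 lower, of which 419 and 403 were among the main ones, and 28 higher by at least 0.5. Their medians were 0.26 and 0.30 for the large and small subunits, 0.38 for elongation factors and 0.31 for glycolysis. Arrays 25 to 28 alone gave 1043 higher and 1193 lower, of which 431 and 400 were among the main ones, and 100 and 35 by at least 0.5. The cytosolic chaperone median turned to 0.0341 there. With 2 arrays a side fewer values have to be separated, so more genes are counted. The other settings (scaling, medians, length trend and probes beyond 3 on either side) kept every count within 1.5 times. Signal over background could not be judged without intensities.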
